A study of Mus musculus with 6 samples.

Results

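The variable segments of the antibody light chains were followed through 6 RNA libraries of mouse femur. Members were all rows of the deposited scaled table with the biotype of an immunoglobulin V gene and a name starting with Igkv (kappa, 82 segments) or Iglv (lambda, 3 segments), which gave 85 of 28533 rows. The annotation used here (GENCODE M21, GRCm38) holds 103 such genes, and the 18 outside the scaled table had 161 counts in all 6 libraries together and at most 5 in a library. The groups were 3 control and 3 phlebotomy (blood removal) samples of C57BL/6 mice, aged 12 weeks and of genotype WT. The bone was enriched for osteocytes, the cells embedded in the matrix, and total RNA was sequenced. The deposited columns carry an initial and the number 1, 2 or 4. Initial P was read as phlebotomy and N as control by elimination, and each library is called by its group and that number. Where a group has 3 values, they stand in the order 1, 2 and 4. Separate animals are not stated in the labels, and p-values therefore measure the spread between these samples, which may be technical.

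An antibody light chain is built by joining 1 V segment to 1 J segment in front of a constant region, in each developing B cell separately. The descendants of a B cell mostly keep its choice, so the set of V segments in a tissue depends on which B cells and antibody-secreting progeny (plasma cells) contribute RNA. Separate B cells can choose the same segment, so a V segment alone does not identify a clone. Plasma cells carry far more immunoglobulin mRNA per cell than resting B cells, and bone marrow is a place where they live for long. Mouse antibodies use kappa light chains more often than lambda, and the mouse lambda locus has few V segments. In bulk RNA, fewer cells of a type and less RNA per cell cannot be told apart.

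Libraries held 11219243 to 19015588 gene counts. Light-chain V segments received 32161 of them, from 2055 in phlebotomy 4 to 10102 in control 1. The 7 osteocyte markers summed to 13651 to 48493 TMM-scaled CPM (counts scaled to library size) and none was at 0, while 6 neutrophil and 6 erythroid genes reached 13867 to 32769 and 10202 to 22411 CPM, so marrow RNA was present in every library. Control 1 and phlebotomy 2 stood apart in immunoglobulin RNA. Phlebotomy 2 also held the largest share of reads over rows that name no mouse gene, 0.0285% against 0.00278% to 0.00361% elsewhere. The part of that in the results was not tested.

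The segments that lead the libraries are shown by the last 60 bases of their coding sequence in the GENCODE M21 transcripts, 5′ to 3′, because this stretch ends framework 3 and opens the third hypervariable loop, the part that joins to J. Coordinates are those of the whole gene on GRCm38. Iglv1 (chr16:19085017-19085500, minus strand) and Iglv2 (chr16:19260401-19260859, minus strand) are 96.3% identical over the coding sequence, and capitals mark the 3 bases of this stretch that differ between them.
Iglv1: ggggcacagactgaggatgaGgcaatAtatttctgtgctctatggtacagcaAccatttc
Iglv2: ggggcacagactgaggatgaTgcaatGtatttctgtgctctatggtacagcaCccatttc
Igkv12-44 (chr6:69814631-69815154, minus strand) and Igkv12-46 (chr6:69764523-69765022, minus strand) are 95.4% identical, and capitals mark the 5 bases that differ.
Igkv12-44: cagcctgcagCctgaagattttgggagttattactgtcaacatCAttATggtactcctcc
Igkv12-46: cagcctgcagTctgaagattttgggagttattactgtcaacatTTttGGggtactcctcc
In the next set capitals mark the letters TATTNCTG, which end in the first bases of a codon for the conserved cysteine before the loop. On the coding strand 68 of the 85 members (80%) hold these letters in the last 60 bases, and 4 hold them on the other strand. The segments are Igkv8-30 (chr6:70117061-70117620, minus strand), Igkv4-72 (chr6:69226854-69227433, minus strand), Igkv16-104 (chr6:68425575-68426072, plus strand), Igkv1-88 (chr6:68862265-68863031, minus strand) and Igkv6-13 (chr6:70457501-70458036, minus strand).
Igkv8-30: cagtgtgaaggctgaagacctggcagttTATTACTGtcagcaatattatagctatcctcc
Igkv4-72: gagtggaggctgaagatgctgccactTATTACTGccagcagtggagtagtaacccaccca
Igkv16-104: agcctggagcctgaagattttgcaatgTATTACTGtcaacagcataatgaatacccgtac
Igkv1-88: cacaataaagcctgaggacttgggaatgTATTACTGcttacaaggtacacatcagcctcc
Igkv6-13: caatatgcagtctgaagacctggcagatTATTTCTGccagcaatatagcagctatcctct
Annotated transcripts of the members are 284 to 501 bases long (median 359). Windows of 126 bases, the read length, were shared with another annotated light-chain V segment in 21 members and unique in 64, and the largest shared part was 51.2% of windows in Igkv6-20. Iglv1, Iglv2, Igkv12-44 and Igkv12-46 shared no such window, but shorter read parts can fit both members of a pair, so counts of near-identical segments are uncertain.

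Total light-chain V RNA was highest in 1 library of each group. The sum over the 85 segments was 996, 177 and 247 CPM in the control libraries and 242, 589 and 130 CPM in the phlebotomy libraries. Control 1 and phlebotomy 2 were high and the groups overlapped. The mean was 473 ± 454 CPM in control and 320 ± 240 CPM after phlebotomy (SD, n = 3), a mean log2 difference of -0.41 (two-sided exact permutation p = 0.6, where 3 against 3 samples cannot go below 0.1). That log2 difference was 0.34 without control 1, 0.10 without phlebotomy 4 and -0.99 without phlebotomy 2, so its sign changed when either of the first 2 libraries was left out.

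The constant region genes followed the same order. Igkc, Iglc1, Iglc2 and Iglc3 summed to 1441, 268 and 391 CPM in the control libraries and to 382, 862 and 202 CPM in the phlebotomy libraries. Light-chain V counts per light-chain constant count were 0.691, 0.662 and 0.632 in the controls and 0.633, 0.684 and 0.644 after phlebotomy, so the ratio ranged over 1.09-fold while the V level ranged over 7.67-fold (exact permutation p = 0.8 for the ratio). The lambda percentage of constant counts, 12.7, 23.6, 20.7, 15.4, 7.45 and 16.6 in the same order of libraries, lay close to that of V counts given below. Heavy-chain V segments summed to 334, 92.3 and 112 CPM in control and 91.5, 219 and 71.5 CPM after phlebotomy, again highest in control 1 and phlebotomy 2.

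Jchain, which links antibodies into polymers and is made by antibody-secreting cells, was at 407, 59.7 and 86.5 CPM in the control libraries and at 86.7, 163 and 39.6 CPM in the phlebotomy libraries. Its highest library lay 10.3-fold above its lowest. The B cell receptor signalling gene Cd79a ranged over 2.02-fold and the B cell surface gene Ms4a1 over 1.38-fold, with Cd79a highest in control 4. Xbp1, a factor of the secretory program that many secretory cells use, ranged over 1.28-fold. The 15 plasma cell genes listed summed to 1384 to 1863 CPM in control and 1243 to 1498 CPM after phlebotomy. Much of that sum came from Xbp1 (402 to 517 CPM), Tent5c (186 to 303 CPM) and Edem1 (221 to 266 CPM), so it does not follow plasma cells alone. Tnfrsf17, the plasma cell receptor BCMA, was under 1 CPM in each library. Whether the number of plasma cells had a part in the light-chain level was not tested.

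**Figure D1:**
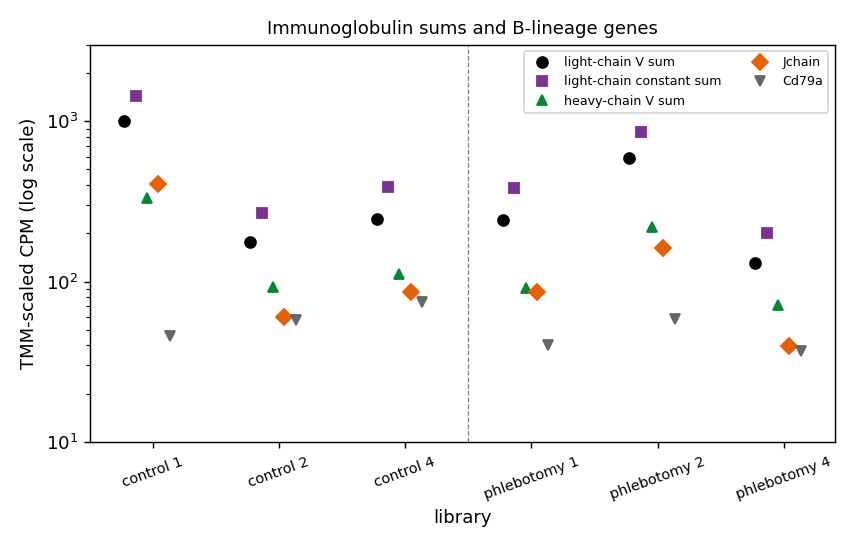
TMM-scaled CPM on a log axis (y) for each of the 6 libraries (x), with one symbol per sum or gene and controls left of the dashed line. The light-chain V sum, the constant sum, the heavy-chain V sum and Jchain are highest in control 1 and phlebotomy 2, whereas Cd79a is highest in control 4.

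Leading segments differed between most libraries and are given here as shares of a library's summed light-chain V counts with 95% exact binomial intervals that cover counting error only. Igkv4-72 led control 1 with 14.1% (13.4 to 14.7), and Iglv1 led control 2 with 19.6% (18.2 to 21.0) and control 4 with 19.3% (18.0 to 20.6). Igkv12-44 led phlebotomy 1 with 14.9% (13.80 to 16.02), Igkv12-46 led phlebotomy 2 with 18.4% (17.6 to 19.2), and Igkv8-30 led phlebotomy 4 with 15.3% (13.8 to 17.0). Thus 5 different segments were first in 6 libraries. The leading share was 17.6 ± 3.10% in control and 16.2 ± 1.90% after phlebotomy (SD, n = 3; exact permutation p = 0.6).

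The leading 3 segments held 38.1, 33.7 and 31.2% in the control libraries and 39.0, 35.3 and 32.9% in the phlebotomy libraries. From 5 (control 1) to 8 (control 2 and 4) segments made up the first 50% of counts. The effective number of segments, which is the number that would give the same concentration if all were equal (inverse Simpson index), was 14.4, 16.3 and 16.1 in control and 14.98, 15.3 and 18.2 after phlebotomy. The means were 15.6 ± 1.07 and 16.2 ± 1.74 (SD, n = 3; exact permutation p = 0.8), and the groups overlapped. Over the 5 measures of usage and level fixed for testing, the smallest p adjusted by Benjamini-Hochberg was 0.8.

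Among kappa segments alone, the leader held 16.3, 9.42 and 8.87% of kappa counts in the control libraries and 17.7, 19.7 and 17.9% in the phlebotomy libraries. These groups did not overlap (11.5 ± 4.11% and 18.4 ± 1.12%, SD, n = 3, exact permutation p = 0.1, the smallest the design allows). The kappa leader's share was not among the 5 measures fixed for testing, and its p is not adjusted. The CPM of single genes was likewise higher after phlebotomy without overlap in 10.1% of all genes, a measure unlike the share of a leader. In control 2 and 4 the overall leader was the lambda segment Iglv1, and the kappa leaders there were Igkv1-110 and Igkv16-104. The effective number of kappa segments overlapped between groups (exact permutation p = 0.4).

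**Figure D2:**
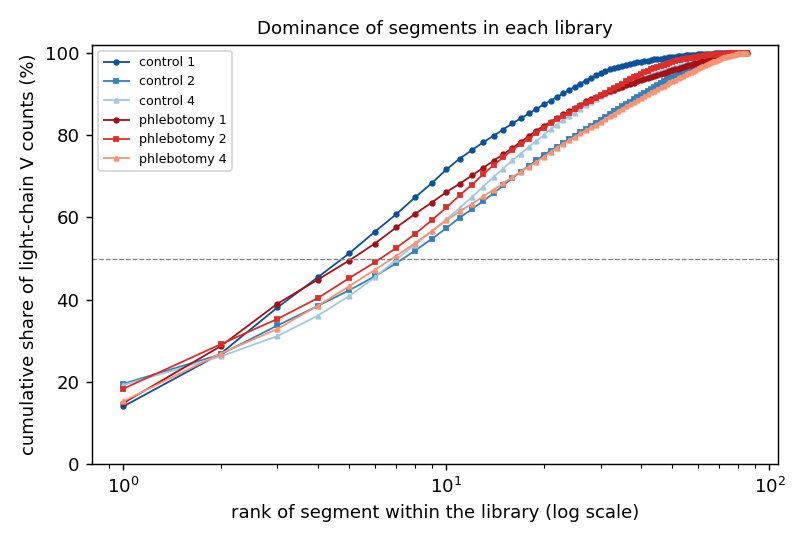
Cumulative share of light-chain V counts in percent (y) against the rank of the segment within its library on a log axis (x), with 1 line per library and a dashed line at 50%. The curves start between 14.1 and 19.6% and pass 50% at rank 5 to 8, and curves of the groups interleave.

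Detection was broad below the leading segments. Of the 85 members 74 had counts in all 6 libraries, and 1 (phlebotomy 1) to 5 (control 1) were at 0 in a library. A count of 0 allows a share of up to 0.0297% in control 1 and 0.146% in phlebotomy 4. At the depth of phlebotomy 4, 2055 light-chain V counts, the expected number of members seen was 63.3, 80.9 and 78.2 in the control libraries and 81.2, 72.3 and 83.0 in the phlebotomy libraries. Control 1 and phlebotomy 2, where light-chain V RNA was highest, showed the fewest members at equal depth. Between 20 and 23 members reached 1% of a library, 56 reached it in at least 1 library, and 2 reached it in all 6.

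The most used segments moved widely between libraries. Iglv1 had the highest mean share, with 7.35, 19.6 and 19.3% in the control libraries and 13.8, 3.28 and 11.6% in the phlebotomy libraries. Igkv8-30 came next with 12.8, 0.524 and 0.463% in control and 1.14, 10.8 and 15.3% after phlebotomy, high in 3 libraries of both groups and near or under 1% in the other 3. Igkv19-93 held 11.2, 4.75 and 2.34% in control and 1.54, 3.39 and 5.64% after phlebotomy. Igkv12-44 held 5.77, 0.740 and 0.381% in control and 14.9, 6.17 and 0.681% after phlebotomy. Its near-identical neighbour Igkv12-46 followed another pattern, with 4.31, 0.863 and 0.762% in control and 0.198, 18.4 and 1.17% after phlebotomy. In phlebotomy 1 the former was first of all segments and the latter was at 8 counts.

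Igkv1-110 and Igkv1-117, which are 97.2% identical in coding sequence, shared 6.16 and 6.09% of their 126-base windows with each other. Igkv1-110 held 1.11, 7.15 and 2.78% in control and 3.96, 0.597 and 1.80% after phlebotomy, and Igkv1-117 held 0.465, 7.03 and 0.925% and 4.11, 0.365 and 3.11%. Both were highest in control 2 and low in control 1 and phlebotomy 2. Igkv14-126 held 0.198% (phlebotomy 1) to 4.86% (phlebotomy 2), and Igkv6-15 held 0.327% (control 1) to 4.63% (phlebotomy 1). Of the remaining segments among the first 3 of a library, Igkv8-21 reached 10.4% in phlebotomy 1, Igkv14-100 5.99% in phlebotomy 4 and Igkv1-99 4.95% in control 4, and Igkv1-99 had 0 counts in phlebotomy 4.

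**Figure D3:**
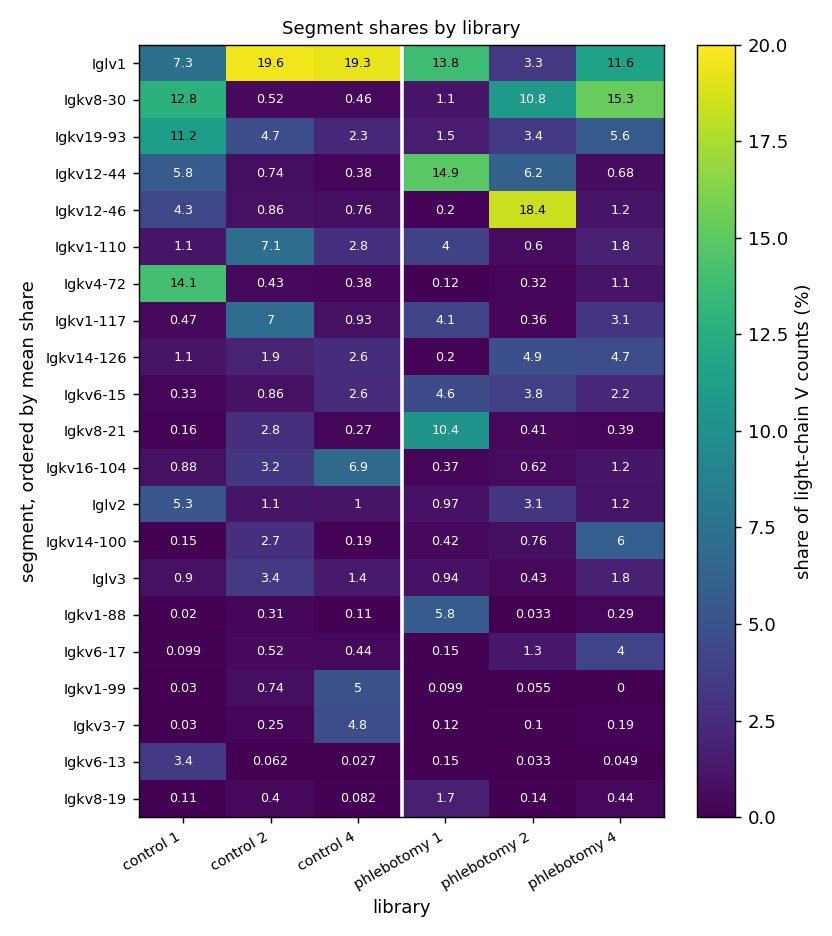
Share of light-chain V counts in percent (colour and number) for the 21 segments singled out by the naming rule (rows, by mean share) in the 6 libraries (columns; the white line parts control from phlebotomy). The bright cells fall on different rows from library to library, such as Igkv4-72 in control 1 and Igkv12-46 in phlebotomy 2.

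Some segments were abundant in a single library. Of 44 members that reached 100 counts in some library, 4 stayed under 5% of that CPM in every other. Igkv4-72 had 1420 counts in control 1 (140 CPM) and 85 in the other 5 libraries together, where it was at 0.299 to 1.89 CPM. Igkv6-13 had 346 counts in control 1 (34.1 CPM) and 13 in the others. Igkv1-88 had 236 counts in phlebotomy 1 (14.1 CPM) and 25 in the others, and Igkv3-7 had 175 in control 4 (11.8 CPM) and 29 in the others. Just inside the limit was Igkv3-7, with its second library at 4.99% of the highest, and just outside were Igkv4-51 at 6.64% and Igkv4-58 at 6.73%, which the naming rule does not cover. Such segments occurred in both groups.

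By family, the Igkv4 group of 20 members held 29.2% of counts in control 1 and 7.41 to 13.6% in the other libraries. The 6 Igkv12 members held 27.0% in phlebotomy 2, 15.9% in phlebotomy 1, 11.6% in control 1 and at most 3.20% in the remaining 3. The 8 Igkv1 members took the reverse order for control 1 and phlebotomy 2, with 2.45 and 1.79%, against 8.66 to 17.7% elsewhere. The 8 Igkv6 members had the narrowest range of the families with 6 or more members, from 4.84 to 9.49%.

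Use along the kappa locus, which spans from 27.4 to 3170 kb before Igkc for these segments, varied between libraries. Segments on the plus strand, the orientation of Igkc, can join to J by deletion of the DNA between them, and minus strand segments join by inversion. The 31 plus strand segments held 13.5, 53.7 and 51.4% of kappa counts in the control libraries and 26.7, 20.6 and 41.3% in the phlebotomy libraries (exact permutation p = 0.6). The share was lowest in control 1 and phlebotomy 2. The 41 segments nearest to Igkc held 54.1, 39.4 and 46.1% in control and 59.0, 66.4 and 49.4% after phlebotomy (exact permutation p = 0.2), and the groups overlapped through control 1 and phlebotomy 4. Position and strand were looked at after the shares were known.

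**Figure D4:**
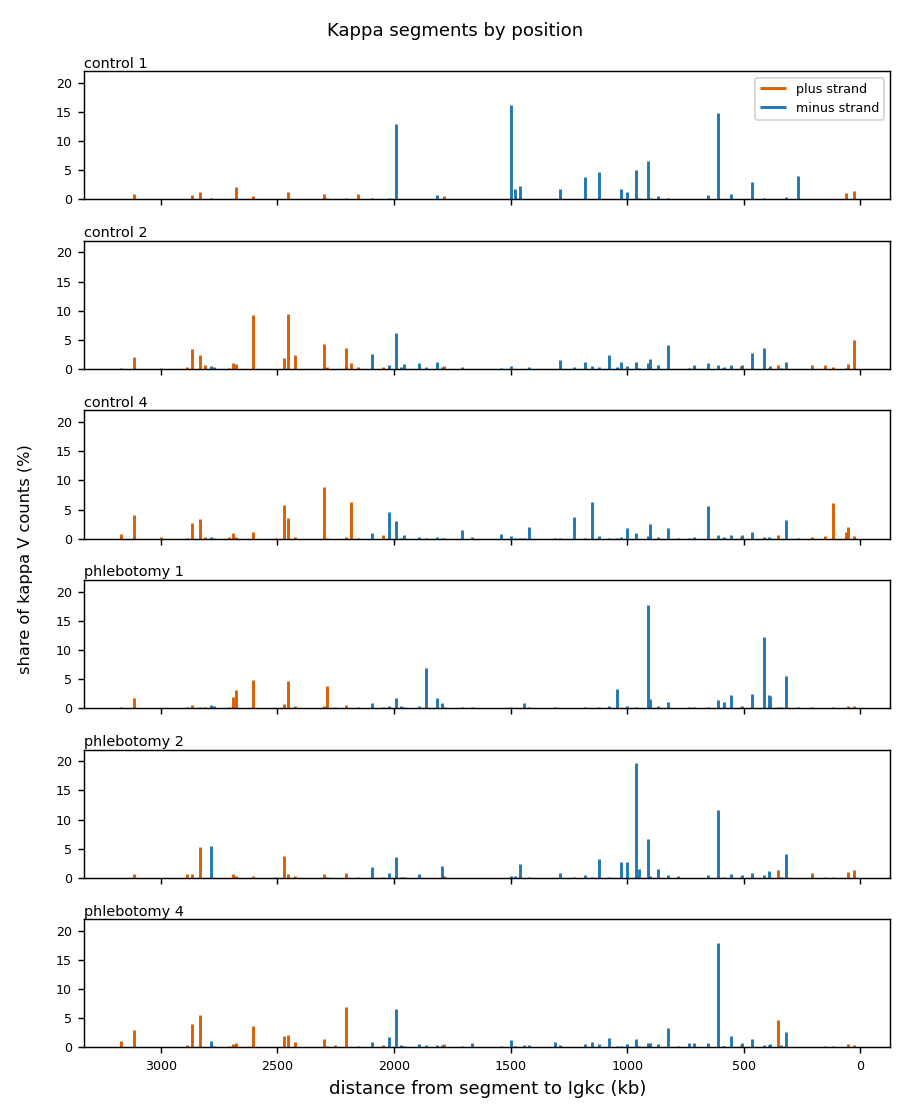
Share of kappa V counts in percent (y) for each kappa segment at its distance to Igkc in kb (x, nearest at the right), 1 panel per library, coloured by strand. Tall minus strand lines mark control 1, phlebotomy 1, phlebotomy 2 and phlebotomy 4, and control 2 and 4 show many plus strand lines far from Igkc.

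Reads over the 5 kappa J rows came to 594, 166 and 206 counts in the control libraries and 281, 623 and 123 counts in the phlebotomy libraries. Igkj1 had the largest share in control 1 (50%), control 2 (45.8%), phlebotomy 2 (37.1%) and phlebotomy 4 (34.1%). Igkj2 led in control 4 (35.9%) and Igkj5 in phlebotomy 1 (38.8%). Igkj3 was the lowest in each library, at no more than 5.34%.

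The lambda segments held 13.5, 24.1 and 21.7% of light-chain V counts in the control libraries and 15.7, 6.85 and 14.5% in the phlebotomy libraries. The mean was 19.8 ± 5.56% and 12.4 ± 4.81% (SD, n = 3; exact permutation p = 0.3), with control 1 below phlebotomy 1 and 4. As a level, lambda V RNA was 135, 42.7 and 53.7 CPM in control and 38.0, 40.4 and 18.9 CPM after phlebotomy, and here the groups did not overlap (exact permutation p = 0.1, the smallest the design allows). That sum was singled out after its values were seen.

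Iglv1 carried most of the lambda counts in each library except phlebotomy 2, where it had 297 of 620. It was at 73.2, 34.7 and 47.6 CPM in the control libraries and 33.4, 19.3 and 15.04 CPM in the phlebotomy libraries, without overlap, though control 2 and phlebotomy 1 were close. Its log2 fold change was -1.19 ± 0.32 (SE, edgeR adjusted p 0.167), so it did not pass over all genes. Iglv3 was at 8.97, 6.01 and 3.56 CPM in control and 2.28, 2.54 and 2.34 CPM after phlebotomy, also without overlap (log2 fold change -1.36 ± 0.33 SE, edgeR adjusted p 0.139). Both passed in DESeq2 (adjusted p 0.0123 and 0.0219) and in edgeR with no low-count filter (5.0e-06 and 0.00417), and their adjusted p ran up to 0.613 over 13 alternatives. Iglv3 also passed in edgeR without phlebotomy 2 (0.0489).

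Iglv2 behaved differently from Iglv1. It was at 52.5, 2.02 and 2.55 CPM in the control libraries and at 2.34, 18.5 and 1.52 CPM in the phlebotomy libraries, high only in control 1 and phlebotomy 2 among the 6 libraries. Iglv1 had 1.39 and 1.05 counts per Iglv2 count in those libraries and 9.92 to 18.6 in the other 4. Iglc2, the constant gene that Iglv2 mostly joins, was at 80.8 and 32.8 CPM in control 1 and phlebotomy 2 and at 11.1 to 16.1 CPM elsewhere. Iglc1, a usual partner of Iglv1, was at 91.7, 37.3 and 41.3 CPM in control and 27.6, 22.4 and 9.48 CPM after phlebotomy. Those groups did not overlap (log2 fold change -1.51 ± 0.49 SE, edgeR adjusted p 0.228), as in 11.2% of all genes with phlebotomy lower. Iglc3 was at 11.1, 9.95 and 23.9 CPM in control and 17.1, 9.06 and 13.0 CPM after phlebotomy. Its groups overlapped (log2 fold change -0.20 ± 0.33 SE, edgeR adjusted p 0.778). Iglv1 had more counts than Iglc1 in control 4, phlebotomy 1 and phlebotomy 4 (1.15, 1.21 and 1.59 per Iglc1 count) and fewer in the other libraries.

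Across the whole table, 0 of the 47 members that passed the low-count filter (minimum count 10) were called higher or lower by edgeR's quasi-likelihood test at an adjusted p of 0.05. Over all 18838 genes 0.0159% were called higher and 0% lower. At an unadjusted p under 0.05, 1 member was higher and 6 were lower, or 2.13% and 12.8% of those tested, against 7.01% and 9.42% of all genes. The remaining 38 members did not pass that filter, so these counts do not describe all members. Among the untested were segments abundant in a single library, such as Igkv6-13 (346 counts in control 1) and Igkv1-88 (236 in phlebotomy 1). Groups did not overlap in 5 members, all lower, or 10.6% against 11.2% of all genes, and in 0 members that were higher, against 10.1% of all genes. They were Iglv1, Iglv3, Igkv16-104 and, named after their values were seen, Igkv4-91 and Igkv17-127. DESeq2 gave an adjusted p to 20 members and called 0 higher and 3 lower (Igkv16-104, Iglv1 and Iglv3), against 0.637% higher and 1.68% lower of the 12254 genes that it gave one. limma-voom called 0 members and 0% of all genes, with 6 of the 47 members at an unadjusted p under 0.05, against 16% of all genes. With no low-count filter edgeR called 1 of the 85 members higher (Igkv6-20, outside the naming rule) and 4 lower (those 3 and Igkv1-110), against 0.357% and 0.884% of 46504 genes. Without phlebotomy 2 it called 0 of 52 members higher and 2 lower, against 1.75% and 2.99% of 20300 genes.

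Igkv16-104 had the lowest log2 fold change of these 5 members. It was at 8.78, 5.68 and 17.1 CPM in the control libraries and 0.898, 3.65 and 1.58 CPM in the phlebotomy libraries. The log2 fold change was -2.37 ± 0.52 (SE, edgeR adjusted p 0.143, and 0.0145 without phlebotomy 2, 0.0496 in DESeq2). Over 13 alternatives its adjusted p ran from 7.2e-11, with no low-count filter, to 0.613.

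On the higher side the smallest p belonged to Igkv6-17, at 0.986, 0.929 and 1.08 CPM in control and 0.359, 7.62 and 5.18 CPM after phlebotomy. Phlebotomy 1 lay below all controls, so the groups overlapped (log2 fold change 2.13 ± 0.89 SE, edgeR adjusted p 0.301). Igkv8-19 and Igkv6-15 had log2 fold changes of 1.54 ± 0.76 and 1.73 ± 0.89 (SE, edgeR adjusted p 0.334 and 0.407). The lowest log2 fold change of the 47, -5.27 ± 2.66 (SE) in Igkv4-72, came with an edgeR adjusted p of 0.417 and was 0.50 without control 1.

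**Figure D5:**
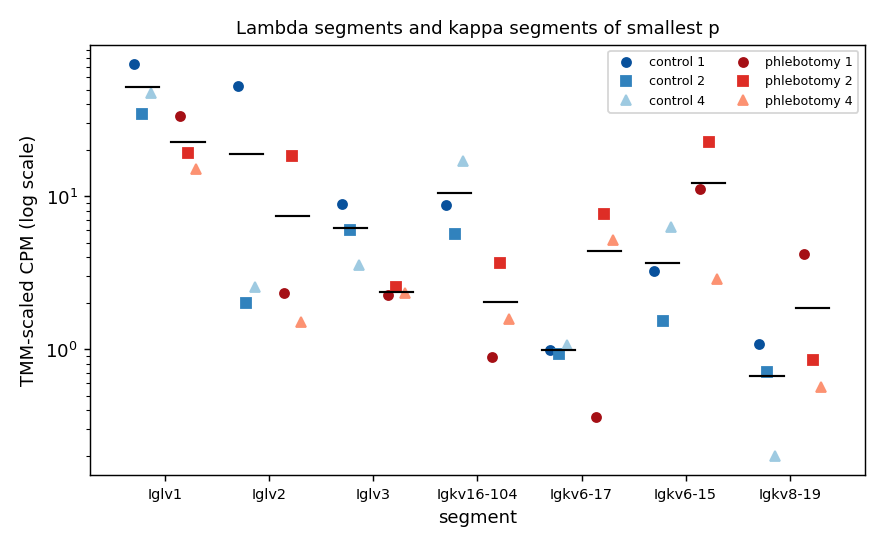
TMM-scaled CPM on a log axis (y) of the 3 lambda segments and 4 kappa segments (x). Each library has 1 symbol, controls in blue and phlebotomy in red, with a bar at each group's mean. The kappa segments are those among the 3 smallest p per direction. They are Igkv16-104 on the lower side and Igkv6-17, Igkv8-19 and Igkv6-15 on the higher side. Igkv4-91 and Igkv17-127, which also do not overlap between groups, are not shown. Iglv1, Iglv3 and Igkv16-104 do not overlap between groups, and Iglv2 is high only in control 1 and phlebotomy 2 of the 6 libraries.

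The spread within groups set these members off from other genes in size. The median SD of log2(CPM + 0.5) between libraries of a group was 1.34 in control and 1.15 after phlebotomy over the 47 members, against 0.249 and 0.280 over 13130 genes in the members' range of mean CPM. For the 31 heavy-chain V segments tested it was 0.895 and 0.986. The median log2 fold change of the light-chain members was -0.35 (19 above 0 and 28 below), beside -0.0028 over all genes, and it was 0.50 over 55 members tested without control 1 and -1.10 over 52 tested without phlebotomy 2. The overlap of usage, summed as the smaller share of each segment in a pair of libraries, was 28.2 to 58.9% over 6 pairs within a group (median 41.0%) and 32.9 to 62.0% over 9 pairs between groups (median 47.1%). The widest overlaps were 62.0% between control 2 and phlebotomy 4 and 58.9% between control 2 and 4, and control 1 overlapped most with phlebotomy 2 (53.0%).

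Genes that make and use light chains were described from lists. Of 20 genes of light-chain recombination and the pre-B stage, 20 were tested, 0 passed in edgeR in either direction, and 17 had a log2 fold change below 0 (median -0.30). Rag1, the recombinase, was at 4.44, 6.72 and 5.31 CPM in control and 3.95, 8.40 and 6.89 CPM after phlebotomy. Irf4, a factor of light-chain recombination and of plasma cells, stood at a log2 fold change of -0.997 ± 0.290 and Foxo1, which drives Rag expression, at -0.67 ± 0.19 (SE, edgeR adjusted p 0.173 and 0.169). Of 12 mature B cell genes 0 passed and 10 were below 0 (median -0.52), with the IgM receptor Fcmr at -1.01 ± 0.27 (SE, edgeR adjusted p 0.160). Of 14 plasma cell genes tested 0 passed, 11 were below 0 and 3 were above 0 (median -0.24). One of those above 0, named after its values were seen, was Eaf2. It was at 2.56, 2.24 and 1.95 CPM in control and 3.59, 3.58 and 3.79 CPM after phlebotomy (log2 fold change 0.71 ± 0.29 SE, edgeR adjusted p 0.253). Creld2 was higher, with a log2 fold change of 0.55, and Pou2af1 was lower, with -0.63 (adjusted p 0.187 and 0.202 in edgeR). Both had a smaller p than Eaf2, and neither overlapped between groups. Of the 4 constant genes 0 passed and 4 were below 0 (median -0.70). Among markers of other cells, 7 of 7 osteocyte genes (median -0.72), 7 of 7 osteoblast genes (median -0.47) and 6 of 6 T cell genes (median -0.19) had log2 fold changes below 0, with 0 passing. The osteocyte sum was 48493, 45117 and 22523 CPM in control and 13651, 24728 and 24620 CPM after phlebotomy, and the groups overlapped. Of 6 neutrophil, 6 erythroid and 5 macrophage genes 3, 1 and 1 were below 0 (medians 0.062, 0.19 and 0.085). The median of all genes was -0.0028, and the part of B-lineage RNA or of other cell types in the segment levels was not tested.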

How the data were processed

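Per the labels' protocols, total RNA of osteocyte-enriched bone gave Nextera XT libraries (unstranded) read at 126 bp in paired-end mode. Per the submitters' processing notes, the tools included STAR (2.7.3a and 2.5.2a), limma, edgeR and DESeq2 and the genome was mm10 or GRCm38.p3, with no roles; the counting program is not given in the sources used here. The authors deposited a table of raw counts, a filtered copy, and a signal table of TMM-scaled CPM, per the file's name, whose names and biotypes chose the members. Rows that name no mouse gene (0.00278% to 0.0285% of counts) were left out. Counts were filtered with filterByExpr (minimum count 10), scaled with TMM and tested over 18838 genes with edgeR 4.0.16 (R 4.3.3, robust quasi-likelihood, Benjamini-Hochberg, threshold 0.05), phlebotomy against control without covariates; standard errors come from the F statistic. Alternatives used DESeq2 1.42.0 and limma 3.58.1. Shares are counts of a segment over all member counts of a library; the deposited scaled values give the same shares. Divided by transcript length, a share moved by at most 1.31 percentage points and no leading segment changed. Permutation tests (scipy 1.17.1) were exact and two-sided. Segments named are the 10 highest by mean share, the 3 highest of each library, those past the threshold, those of 1 library, the 3 smallest p per direction and all lambda segments. One gene of the lists that the naming rule covers is not reported here. Members and lists were chosen with earlier results of these data known. Alternatives were other scaling, filters, models, a replicate block, length, pseudogenes, fewer members, and leaving out libraries.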

Additional observations from a re-analysis of the deposited data

How the results depend on the processing

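With 3 libraries a group and 2055 to 10102 light-chain V counts in each, a permutation test over libraries could not go below 0.1. Whether the column numbers pair libraries could not be settled. Deviations from group means of same-numbered libraries correlated at -0.13, -0.105 and -0.0772, and no library correlated best with its own number. With 3 libraries a group such correlations are too few to decide on a pairing. The replicate block called 0 segments higher and 0 lower, the same as the fit without it. The calls of 0 higher and 0 lower became 1 and 4 with no low-count filter and 0 and 3 in DESeq2, and ran from 0 to 1 and from 0 to 2 with a library left out. Calls over all genes, 3 higher and 0 lower, became 166 and 411 with no filter, 78 and 206 in DESeq2 and 356 and 607 without phlebotomy 2, where the 2 lower segments were called; with another library left out they ran from 0 to 12 and from 0 to 2. Beyond Iglv3 and Igkv16-104, given above, those were Igkv6-20 (higher, without phlebotomy 4) and Igkv3-5 (lower, without control 2). The cause was not tested.

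Among the measures per library, without the highest segment of each library the lambda share difference went from -7.42 to 6.54 percentage points, since Iglv1 is then taken from 2 libraries only. The effective number difference went from 0.56 to -2.98, and the cause was not tested. Over kappa segments alone the difference of the highest share was 6.93 percentage points, against -1.44. With a library left out, differences ran from -0.99 to 0.34 (log2 level), from -10.6 to -4.66 points (lambda share), from -3.22 to -0.47 points (highest share), from -0.44 to 1.15 (effective number) and from -0.050 to 0.016 (log2 V per constant count).

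Log2 fold changes of opposite sign came from the replicate block for Igkv12-46 (-0.0805), Igkv14-126 (-0.0606) and Igkv8-30 (2.64) and from limma-voom for Igkv14-126 (-0.43) and Igkv8-30 (1.92), where the fit over all libraries gave 1.30, 0.80 and -0.57. With a library left out the sign turned in Igkv1-117 (-1.06 to 0.63), Igkv12-44 (-0.26 to 4.40), Igkv12-46 (-3.95 to 4.44), Igkv14-126 (-1.08 to 1.40), Igkv19-93 (-2.95 to 0.53), Igkv4-72 (-5.88 to 0.50), Igkv8-21 (-0.73 to 3.07), Igkv8-30 (-1.95 to 4.80) and Iglv2 (-3.29 to 1.70). The cause was not tested.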
